A study of Mus musculus with 9 samples.

Results

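Parm1, Dapk1, Prtn3, Phkg1, Syn2, Ndrg1 and Sncg are 7 genes that rose strongly when 3T3-L1 cells became fat cells. They stayed high when PPAR gamma, the receptor at the head of the fat cell programme, was depleted. They were 7 of the 18193 genes measured. They had been chosen on the measured values themselves: from preadipocytes to control siRNA adipocytes each rose at least 8-fold, and with PPAR gamma siRNA it did not fall. The values of these contrasts are therefore given as a description, without a test, for the 7 genes. Among the probe sets that name a single gene, the brightest over the 9 arrays stood for the gene, and the others were kept as a check.

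The cells were 3T3-L1, mouse fibroblasts that can be made into adipocytes by hormones, and their total RNA was measured on 9 one-colour oligonucleotide arrays in 3 groups of 3. Preadipocytes were not differentiated, and the labels name no siRNA for them. The other arrays came from cells that had been induced for 2 days (dexamethasone at 1 µM, isobutylmethylxanthine at 0.5 mM and insulin at 10 µg/ml), detached and electroporated 14 days after induction, with a non-targeting oligonucleotide in control siRNA adipocytes and with siRNA against PPAR gamma in PPAR gamma siRNA adipocytes. The amount of oligonucleotide was 2 or 3 nmol, and the labels do not say which arrays had which. Differentiation, time in culture and electroporation cannot be told apart between preadipocytes and either adipocyte group. All groups are 1 cell line, and the series describes the 3 arrays of a group as technical replicates, so the errors and p-values here measure the spread between these samples only.

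PPAR gamma is a nuclear receptor that binds DNA together with a retinoid X receptor. With C/EBP alpha it switches on the genes of lipid uptake, lipid storage and adipokine secretion, and mature adipocytes go on needing it. The cocktail that starts differentiation also acts through the glucocorticoid receptor, through cyclic AMP and through insulin signalling, each of which has targets of its own. The 7 genes come from unlike families: a mucin-like membrane glycoprotein (Parm1), a calmodulin-regulated death-associated kinase (Dapk1), a neutrophil serine protease (Prtn3), a catalytic subunit of phosphorylase kinase (Phkg1), a synaptic vesicle phosphoprotein (Syn2), a stress-responsive cytoplasmic protein (Ndrg1) and a small synuclein known from neurons and from fat (Sncg).

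Pparg itself served as the check of the labels. Its log2 level was 8.22 ± 0.12 (SD, n = 3) in preadipocytes, 12.79 ± 0.12 in control siRNA adipocytes and 9.59 ± 0.05 with PPAR gamma siRNA. Pparg thus fell by 3.20 ± 0.09 (SE) with its siRNA (limma, adjusted p = 1.27e-09). Correlations between arrays were 0.994 to 0.998 within the groups and 0.928 to 0.973 between them. The Actb 3' minus 5' difference, a sign of RNA and labelling quality, was 0.23 to 0.36 in preadipocytes, 0.91 to 1.30 in control siRNA adipocytes and 0.54 to 1.25 with PPAR gamma siRNA. The Gapdh 3' minus 5' difference was -0.19 to -0.02, -0.12 to 0.11 and -0.06 to 0.06 in the same 3 groups. The control probe set BioB-5 was at 7.1 to 7.6, 8.4 to 8.7 and 7.9 to 8.5 log2, with the preadipocyte arrays apart below the rest. The part of these measures in the results was not tested. In bulk RNA, fewer cells of a type and less RNA per cell cannot be told apart.

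The 7 genes stood at the upper edge of a set that mostly fell. Of the 18193 genes, 238 (1.31%) were at least 8-fold above preadipocytes in control siRNA adipocytes, and the difference between PPAR gamma siRNA and control siRNA had a median of -1.97 log2 over these 238 and of -0.01 over all genes. With PPAR gamma siRNA, 16 of the 238 had a mean at or above that with control siRNA. Over all genes, 48.6% were not below it. Of these 16, 6 belong to the 7 genes, and the last of the 7, Parm1, sat at -0.005, well within its SE of 0.10. Among the other 231 genes of the set, the siRNA took back a median of 43.4% of the differentiation rise, with quartiles of 26.6% and 68.1%, where the same figure for the 7 genes was -9.56%, that is, a small further rise. These figures repeat the choice of the genes and support nothing.

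**Figure D1:**
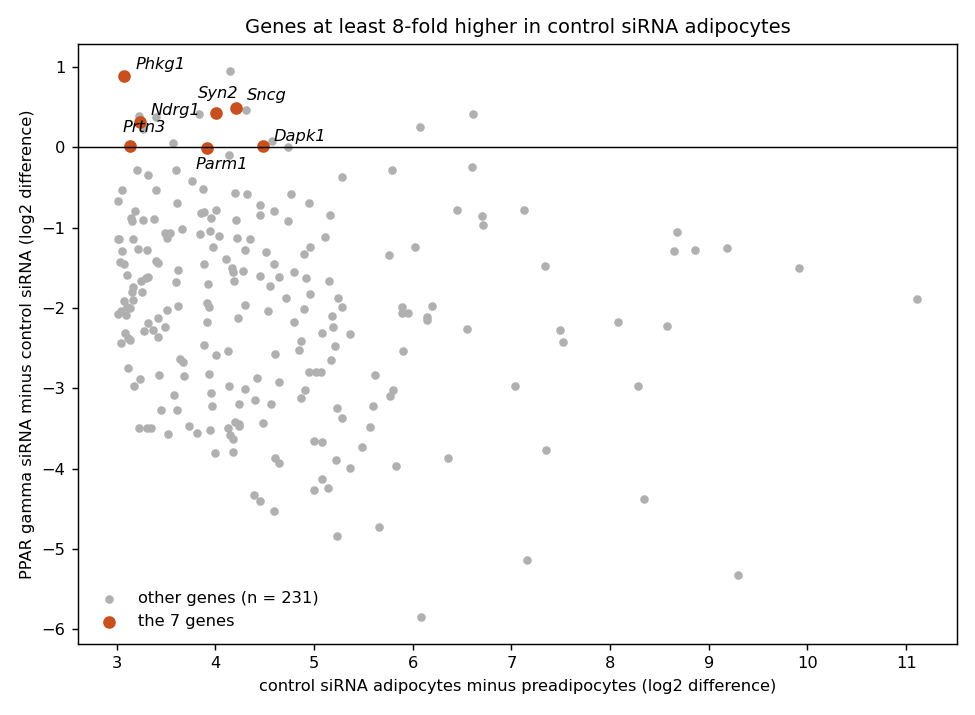
Each point is a gene that rose at least 8-fold from preadipocytes to control siRNA adipocytes; the x axis gives that log2 difference and the y axis the log2 difference of PPAR gamma siRNA minus control siRNA adipocytes. Most of the 238 genes lie below 0 (median -1.97), and 6 of the 7 named genes lie above 0 and Parm1 at -0.005, where their choice placed them.

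The edges of the choice were not sharp. Inside the 8-fold limit, Phkg1 (8.45-fold) and Prtn3 (8.79-fold) were the closest of the 7 at the chosen probe sets. Of all 19 probe sets of the 7 genes, 13 rose at least 8-fold, among them 2 of the 5 of Ndrg1. Just outside it was Tmem241, which was 7.97-fold higher in control siRNA adipocytes and 0.53 higher (log2) with PPAR gamma siRNA than with control siRNA. On the siRNA side, Sult1a1 at -0.002, Ltc4s at -0.09 and Itih4 at -0.25 were the genes nearest below 0. Another 10 genes met both limits without being among the 7: the melanocortin receptor Mc2r (0.95), Cyp2f2 (0.47), Fmo1 (0.42), Apoc1 (0.41), Il15 (0.39), Acox2 (0.38), Ces1d (0.26), the cholesterol exporter Abca1 (0.22), Cyp2c23 (0.08) and Hfe (0.05), with the log2 difference between the siRNAs in brackets.

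Level by level, the 7 genes fell into 2 kinds at the chosen probe sets. In every one of them the 3 control siRNA arrays lay above the 3 preadipocyte arrays, which was also so for 34.0% of all genes, and the 3 PPAR gamma siRNA arrays lay above the preadipocyte arrays, as for 28.8% of all genes. Between the siRNAs, Phkg1, Syn2 and Sncg had PPAR gamma siRNA arrays all above the control siRNA arrays at the chosen probe sets. These were 3 of 7 genes, against 23.4% of all genes. For Syn2 this did not hold at the other probe sets above the array median in adipocytes, which differed by -0.79, -0.36 and -0.27. Parm1, Dapk1, Prtn3 and Ndrg1 had arrays that overlapped. The 7 genes had been chosen for rising at least 8-fold and for not falling, so these counts follow largely from the choice and support nothing. The 23.4% is a share of all genes, of which 48.6% were not below control siRNA, so it is not a like comparison. The 3 comparisons share arrays, so they are not independent of one another.

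**Figure D2:**
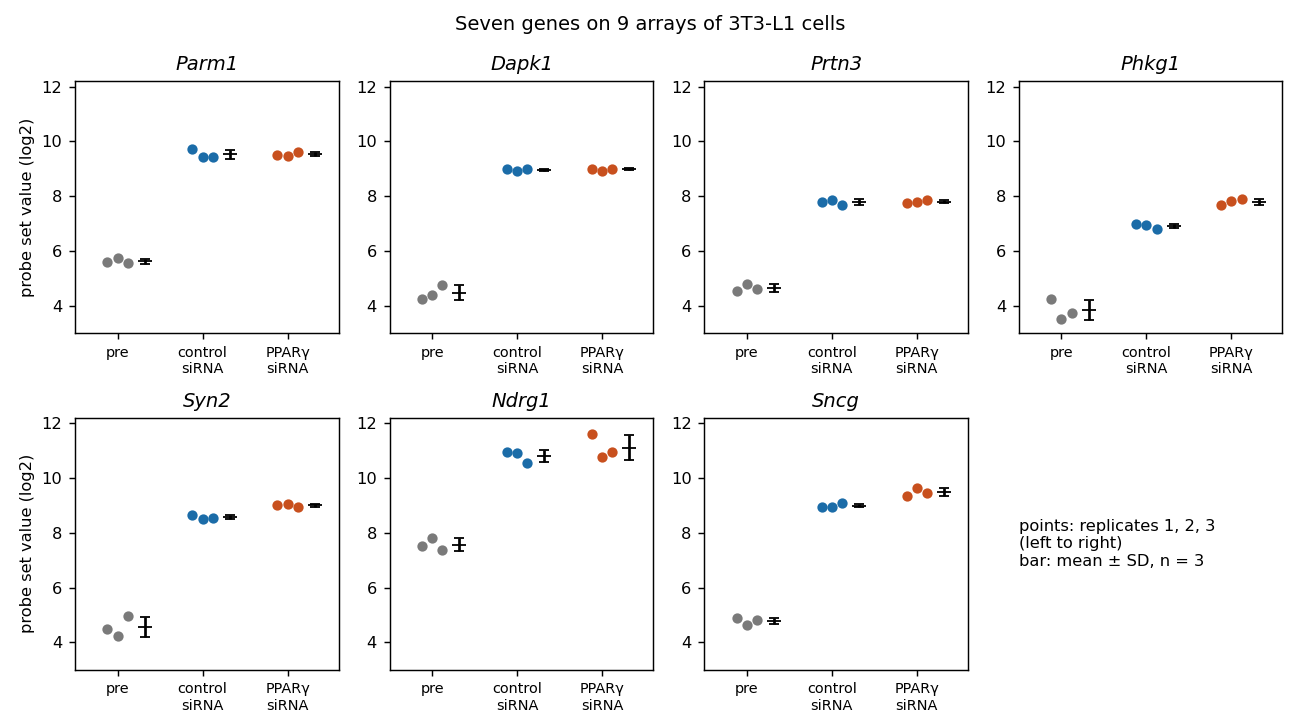
Log2 level of each of the 7 genes on each of the 9 arrays (points), by group, with bars for the group mean ± SD (n = 3). In all 7 panels the preadipocyte arrays lie apart at the bottom. At the chosen probe sets shown, the PPAR gamma siRNA arrays lie apart above control siRNA only for Phkg1, Syn2 and Sncg. Other Syn2 probe sets read lower with PPAR gamma siRNA.

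Dapk1 had overlapping siRNA groups. The kinase promotes cell death and autophagy in response to calcium and calmodulin. Its log2 levels were 4.26, 4.41 and 4.77 in preadipocytes, 8.97, 8.91 and 8.99 in control siRNA adipocytes and 8.99, 8.93 and 9.0 with PPAR gamma siRNA. The 6 adipocyte arrays interleaved within 0.1 log2 of one another, on a rise of 4.48 ± 0.12 log2 (22.3-fold), and the siRNAs differed by 0.01 ± 0.12. The second probe set of Dapk1 rose less, by 2.06 ± 0.17, and differed by -0.12 ± 0.17 between the siRNAs, with siRNA groups that also overlapped, between 7.19 and 7.97.

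The relatives of Dapk1 moved less, and in either direction. Of 6 kinases of the death-associated and calmodulin-dependent group, 2 rose in differentiation, against 27.1% of all genes called higher. These were Mylk, the smooth muscle myosin light chain kinase, by 1.5 ± 0.09 (limma, adjusted p = 8.64e-08) and Dapk2 by 0.46 ± 0.13 (0.014), a call lost without the first or the third preadipocyte array (0.41 and 0.42, adjusted p up to 0.0553); without the first control siRNA array its rise was 0.30. Another 4 fell, against 24.7% of all genes: Camk2d by 1.22 (by 0.41 averaged over its probe sets), Camk1 by 0.63, Stk17b by 0.57 and Dapk3 by 0.41 log2, the last a call (adjusted p = 0.02) that was lost in 5 alternative settings. Between the siRNAs, 1 of the 6 was called higher, against 19.9% of all genes. This was Camk1, by 0.46 ± 0.13 (adjusted p = 0.0177), which lost its call without the third control siRNA array or without the second or the third PPAR gamma siRNA array (adjusted p 0.00287 to 0.0724 over the alternatives). Dapk2 (-0.29 ± 0.13, adjusted p = 0.133, down to 0.0406 over the alternatives) and Stk17b (-0.25, 0.0718, down to 0.0423) did not pass. Dapk3 (0.23, 0.236), Camk2d (-0.16, 0.594) and Mylk (0.14, 0.332) did not pass. The neighbours of Dapk1 on chromosome 13, Gm5084 and Ctsll3, did not pass between the siRNAs either (0.05 with adjusted p = 0.812 and -0.15 with 0.538).

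Prtn3, proteinase 3 of neutrophil granules, had overlapping siRNA groups as well. Its log2 levels were 4.53, 4.80 and 4.59 in preadipocytes, 7.79, 7.87 and 7.66 in control siRNA adipocytes and 7.76, 7.77 and 7.85 with PPAR gamma siRNA. The rise was 3.14 ± 0.10 log2 (8.79-fold) and the siRNAs differed by 0.02 ± 0.10. The array carries 1 probe set for this gene.

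In differentiation, the other genes listed with the neutrophil granule proteases rose less than Prtn3, fell or did not pass. Elane, the neutrophil elastase gene beside Prtn3 on chromosome 10, rose by 0.64 ± 0.16 (limma, adjusted p = 0.00664) and did not pass between the siRNAs (-0.37 ± 0.16, 0.121). Cathepsin G (Ctsg, 0.25 and adjusted p = 0.141) and myeloperoxidase (Mpo, 0.15 and 0.366) did not pass in differentiation, nor between the siRNAs (-0.03 with 0.923 and -0.13 with 0.524). Of the 6 measured genes of the list, 2 were called higher with PPAR gamma siRNA (19.9% of all genes): Serpinb1a, an inhibitor of these proteases, by 2.84 ± 0.13 (1.91e-08; 1.69 averaged over its probe sets), and the dipeptidyl peptidase Dpp7 by 1.07 ± 0.16 (0.000234). These had fallen in differentiation, by 1.01 (by 0.59 averaged over its probe sets) and 2.46 log2. Ctsc, which activates granule proteases, rose by 1.2 ± 0.18 in differentiation (0.000155; 0.58 averaged over its probe sets) and did not pass between the siRNAs (-0.44, 0.102). Plppr3, on the other side of Prtn3, rose by 1.65 ± 0.15 (2.1e-06), with 0.24 ± 0.15 (0.296) between the siRNAs.

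Most neutrophil markers were dim in all groups. Of 12 neutrophil and myeloid markers, 10 were below the array median on all preadipocyte arrays, 8 on all control siRNA arrays and 9 on all PPAR gamma siRNA arrays. The mean of the 12 was 4.08 to 4.24 log2 in preadipocytes, 4.68 to 4.79 in control siRNA adipocytes and 4.31 to 4.49 with PPAR gamma siRNA. Ptprc, the pan-leukocyte marker, was at 3.24, 3.36 and 3.46 in these groups. S100a8 was well above that level in control siRNA adipocytes: it rose by 3.97 ± 0.10 (limma, adjusted p = 3.76e-11) and fell by 3.23 ± 0.10 (1.27e-09) with PPAR gamma siRNA.

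Parm1 encodes a mucin-like membrane glycoprotein first described in prostate. Its log2 levels were 5.58, 5.73 and 5.54 in preadipocytes, 9.72, 9.44 and 9.44 in control siRNA adipocytes and 9.50, 9.47 and 9.61 with PPAR gamma siRNA. The rise was 3.91 ± 0.10 log2 (15.1-fold) and the siRNAs differed by -0.005 ± 0.10, with overlapping arrays. The second Parm1 probe set rose by 3.73 and differed by -0.13 ± 0.13 between the siRNAs. Its neighbour Btc, the growth factor betacellulin, followed another course: it rose by 1.43 ± 0.10 (limma, adjusted p = 2.25e-07; 0.90 averaged over its probe sets) and fell by 1.46 ± 0.10 (5.4e-07) with PPAR gamma siRNA. Rchy1, on the other side, did not pass between the siRNAs (0.04, 0.773).

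Phkg1 showed the largest further rise of the 7. It encodes the muscle form of the catalytic gamma subunit of phosphorylase kinase, which switches on glycogen phosphorylase. Its log2 levels were 4.24, 3.52 and 3.74 in preadipocytes, 6.98, 6.93 and 6.82 in control siRNA adipocytes and 7.68, 7.81 and 7.89 with PPAR gamma siRNA. No arrays overlapped between groups. The rise was 3.08 ± 0.15 log2 (8.45-fold), PPAR gamma siRNA arrays were 0.88 ± 0.15 above control siRNA (1.84-fold), and PPAR gamma siRNA adipocytes stood 3.96 above preadipocytes (15.6-fold). The probe set is of the type whose probes can also match other transcripts. The second Phkg1 probe set, of another type, moved alike, with 3.27, 3.43 and 3.27 in preadipocytes, 6.90, 6.83 and 6.70 in control siRNA adipocytes and 7.78, 7.93 and 8.08 with PPAR gamma siRNA. Its differences were 3.49 ± 0.10 and 1.12 ± 0.10.

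The genes of glycogen metabolism moved in either direction between the siRNAs. Of 25 measured genes besides Phkg1, 15 were called higher and 4 lower in differentiation (27.1% and 24.7% of all genes), and with PPAR gamma siRNA 6 were higher and 10 lower (19.9% and 16.1% of all genes). Without the second control siRNA array or without the second PPAR gamma siRNA array, 7 in place of 10 were called lower. Their median was 0.71 log2 in differentiation, against 0.09 over all genes, and -0.22 between the siRNAs, against -0.01. The largest falls were of enzymes that break or build the polymer. Liver glycogen phosphorylase, Pygl, went from 3.19 to 7.19 and back to 3.38, a fall of 3.81 ± 0.08 (limma, adjusted p = 2.17e-10). The glycogen synthases Gys2 and Gys1 fell by 1.91 ± 0.12 (3.41e-07) and 1.40 ± 0.11 (2.21e-06).

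Other subunits of phosphorylase kinase were among the 6 that rose. Phkb, the beta subunit, rose by 1.14 ± 0.10 with PPAR gamma siRNA (limma, adjusted p = 3.18e-06) after a fall of 0.75 in differentiation. Phka2, the liver alpha subunit, rose by 0.71 ± 0.09 (5.55e-05), with 0.34 (0.0182) and -0.03 (0.861) at its other probe sets. Phkg2, the other catalytic subunit, rose by 0.51 ± 0.10 (0.00232) after a fall of 0.44. The muscle alpha subunit Phka1 did not pass (-0.10, 0.486). Gyg, which primes new glycogen chains, rose by 0.83 ± 0.09 (2.48e-05).

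**Figure D3:**
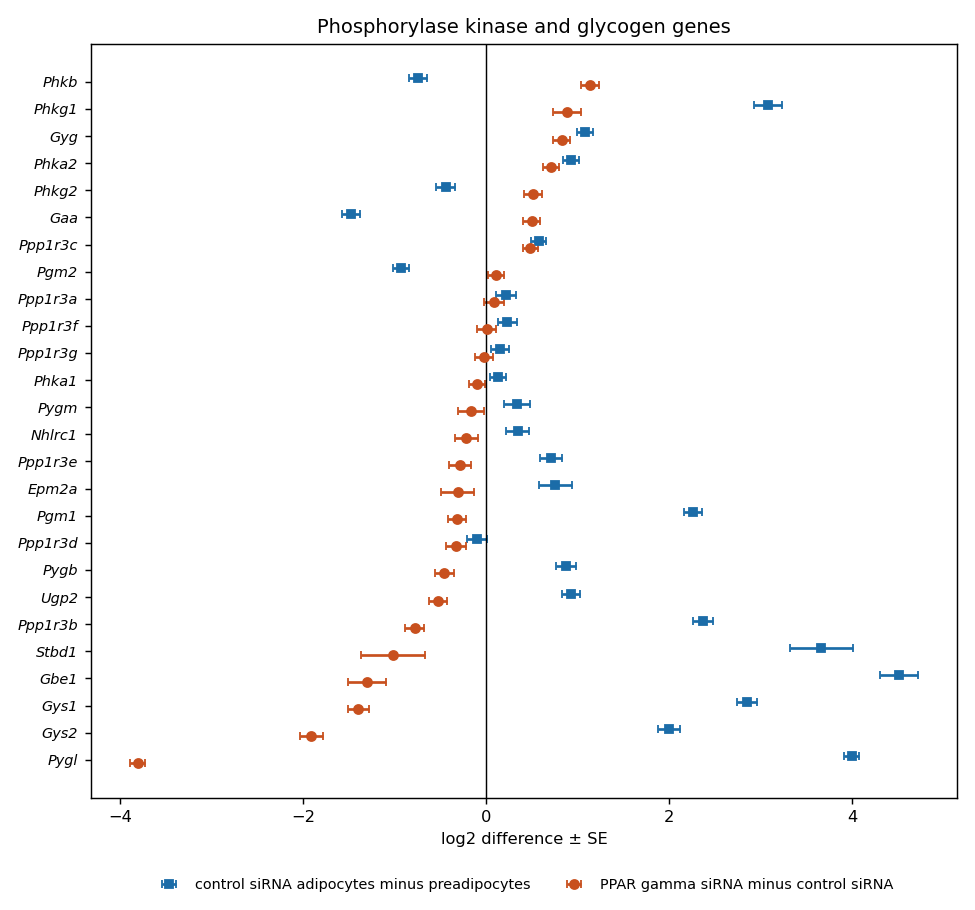
Log2 differences ± SE (n = 3 arrays per group) of Phkg1 and 25 other genes of phosphorylase kinase and glycogen metabolism; squares give control siRNA adipocytes minus preadipocytes and circles PPAR gamma siRNA minus control siRNA. Phkg1, Phkb, Phka2 and Phkg2 lie right of 0 between the siRNAs (0.88, 1.14, 0.71 and 0.51), and Pygl, Gys2 and Gys1 left of it.

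Most muscle markers were dim in all groups. Of 12 skeletal muscle markers, 9 were below the array median on all preadipocyte arrays and 8 on all arrays of either adipocyte group, and their mean was 4.22 to 4.35, 4.74 to 4.80 and 4.47 to 4.63 log2 in the 3 groups. Muscle glycogen phosphorylase, Pygm, was at 3.29, 3.63 and 3.47. Between the siRNAs, 2 of the 12 were called higher (Actn3 by 0.54 and Tnnt3 by 0.40) and 2 lower (Mb by 2.80 and Tnni2 by 0.37), against 19.9% and 16.1% of all genes. The Tnnt3 call was lost without the first control siRNA array (0.30, limma, adjusted p = 0.0656). The Tnni2 call was lost in 8 alternative settings (adjusted p up to 0.94) and its value fell to -0.015 without x and s probe sets, and Mb was at -1.49 when its probe sets were averaged. Sumf2, a gene that overlaps Phkg1 on chromosome 5, went the other way, down by 0.70 ± 0.10 with PPAR gamma siRNA (limma, adjusted p = 0.000256). Zbed5, on its other side, did not pass (0.24, 0.223).

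Sncg, gamma-synuclein, was also higher after PPAR gamma depletion. Its log2 levels were 4.88, 4.65 and 4.81 in preadipocytes, 8.95, 8.95 and 9.07 in control siRNA adipocytes and 9.34, 9.65 and 9.47 with PPAR gamma siRNA. No arrays overlapped between groups. The rise was 4.21 ± 0.10 log2 (18.5-fold), with a further 0.49 ± 0.10 (1.41-fold) between the siRNAs, so that PPAR gamma siRNA adipocytes stood 26.1-fold above preadipocytes. The array carries 1 probe set for Sncg. Its neighbours on chromosome 14, Fam25c and Mmrn2, did not pass between the siRNAs (-0.11 with limma adjusted p = 0.565 and 0.09 with 0.537).

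Syn2, synapsin II, gave an answer that depended on the probe set. On the probe set of highest mean, its log2 levels were 4.49, 4.25 and 4.95 in preadipocytes, 8.65, 8.51 and 8.53 in control siRNA adipocytes and 9.01, 9.06 and 8.93 with PPAR gamma siRNA. There the rise was 4.0 ± 0.15 (16.0-fold), no arrays overlapped, and the siRNAs differed by 0.43 ± 0.15 (1.35-fold higher with PPAR gamma siRNA). Of 5 other Syn2 probe sets, 3 were above the array median in adipocytes, and these read lower with PPAR gamma siRNA.

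The probe set 1460230_at gave 8.99, 9.09 and 9.01 in control siRNA adipocytes and 8.26, 8.21 and 8.26 with PPAR gamma siRNA, a difference of -0.79 ± 0.11 without overlap. For 1449030_at the levels were 8.37, 8.85 and 8.82, then 8.61, 8.50 and 8.11, a difference of -0.27 ± 0.18 with overlap. For 1428460_at they were 8.23, 8.20 and 8.03, then 7.53, 8.02 and 7.83, a difference of -0.36 ± 0.15 without overlap. All 3 rose strongly in differentiation, by 4.91, 5.04 and 4.85. Within each array, the chosen probe set 1435511_at minus 1460230_at was -0.33, -0.58 and -0.48 with control siRNA and 0.75, 0.85 and 0.67 with PPAR gamma siRNA, so that the balance of the 2 signals shifted on every array. Against 1428460_at the same difference went from 0.42, 0.31 and 0.50 to 1.48, 1.04 and 1.10, and against 1449030_at from 0.28, -0.34 and -0.28 to 0.40, 0.56 and 0.81, again without overlap. Which Syn2 transcripts each probe set reads was not analysed here. The remaining 2 probe sets were below the array medians on all 9 arrays.

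**Figure D4:**
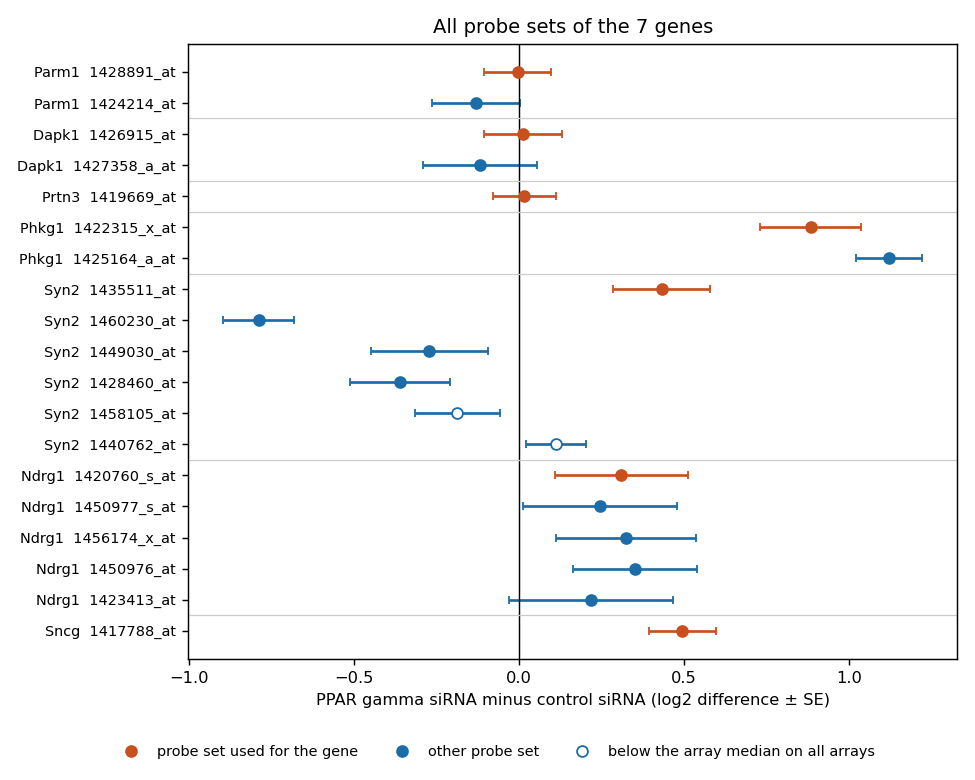
Log2 difference ± SE between PPAR gamma siRNA and control siRNA adipocytes (n = 3 arrays per group) for all 19 probe sets of the 7 genes; orange marks the probe set used for the gene, and open circles are probe sets below the array median on all arrays. The Syn2 probe sets lie on either side of 0 (0.43 to -0.79), whereas those of Phkg1 and Ndrg1 lie right of it.

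RefSeq lists 2 start sites for Syn2. The 250 bases before each are shown, with those of Phkg1 and Sncg. These 3 genes were taken because the arrays of the siRNA groups lay fully apart at the chosen probe set. For Syn2, other probe sets read lower with PPAR gamma siRNA where the chosen one read higher. The sequences are RefSeq's, on GRCm38.p6, written 5' to 3' on the strand of the gene, and capitals mark a match to the C/EBP motif TTGCNNAA.

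Syn2, first start, chr6:115134652-115134901, plus strand: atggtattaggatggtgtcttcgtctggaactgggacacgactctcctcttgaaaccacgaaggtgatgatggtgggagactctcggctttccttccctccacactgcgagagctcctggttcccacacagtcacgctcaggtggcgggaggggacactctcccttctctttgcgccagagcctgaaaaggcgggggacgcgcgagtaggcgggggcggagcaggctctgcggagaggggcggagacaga
Syn2, second start, chr6:115238744-115238993, plus strand: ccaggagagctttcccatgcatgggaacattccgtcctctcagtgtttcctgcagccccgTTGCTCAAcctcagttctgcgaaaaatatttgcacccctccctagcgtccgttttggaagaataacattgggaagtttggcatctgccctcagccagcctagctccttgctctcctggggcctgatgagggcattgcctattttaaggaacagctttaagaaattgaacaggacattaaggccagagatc
Phkg1, chr5:129879089-129879338, minus strand: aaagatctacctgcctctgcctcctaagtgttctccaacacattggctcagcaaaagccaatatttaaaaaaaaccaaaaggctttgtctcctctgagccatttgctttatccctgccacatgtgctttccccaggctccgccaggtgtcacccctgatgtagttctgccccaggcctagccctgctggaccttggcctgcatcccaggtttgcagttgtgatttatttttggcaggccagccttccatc
Sncg, chr14:34374670-34374919, minus strand: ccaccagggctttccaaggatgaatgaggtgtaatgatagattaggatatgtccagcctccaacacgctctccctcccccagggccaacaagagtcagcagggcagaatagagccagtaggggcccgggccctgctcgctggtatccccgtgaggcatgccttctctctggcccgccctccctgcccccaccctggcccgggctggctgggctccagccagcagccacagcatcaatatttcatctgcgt

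Windows were found for 6 of the 7 genes, 7 windows in all. Both strands of each window were searched for TTGCNNAA, for the direct repeat 1 (DR1) motif of PPAR and retinoid X receptor, the glucocorticoid receptor motif ACANNNTGT, the hypoxia factor motif ACGTG, the GATA motif AGATAA and the TATA motif TATAAA. TTGCNNAA occurred in 1 of the 7 windows, the second of Syn2, and in 9.56% of the 32851 windows of the RefSeq table. The other motifs had no match in the 7 windows, and shares of 0.34% for DR1, 5.84% for ACANNNTGT, 16.57% for ACGTG, 9.99% for AGATAA and 12.37% for TATAAA over the table. A match is a string of letters only.

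Syn2 lies next to Pparg on chromosome 6, and the genes around them moved in different directions. Of the 9 measured, Pparg included, 4 rose and 2 fell in differentiation (27.1% and 24.7% of all genes), and 3 rose and 3 fell with PPAR gamma siRNA (19.9% and 16.1%). Pparg, the target of the siRNA, is among those that rose in differentiation and those that fell with the siRNA, so these counts are not a like comparison. Timp4, an inhibitor of metalloproteinases whose gene sits inside Syn2, rose by 1.55 ± 0.13 with PPAR gamma siRNA (limma, adjusted p = 3e-06), and by 2.53 ± 0.15 (1.7e-07) at its other probe set. Cand2 rose by 1.80 ± 0.23 (7.17e-05) and Tamm41 by 0.73 ± 0.10 (0.000149), or by 0.34 averaged over its probe sets. Mkrn2 fell by 0.49 ± 0.10 (0.00223). Vgll4 fell by 0.68 ± 0.20 (0.0226), a call lost without the first or second array of either siRNA group (adjusted p 0.00439 to 0.085 over the alternatives). Atg7 (0.07, 0.679), Tmem40 (-0.06, 0.788) and Hrh1 (-0.05, 0.726) did not pass.

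The relatives of Syn2 and Sncg changed little. Syn1 was at 4.71, 4.97 and 4.76 log2 in the 3 groups, Syn3 at 4.94, 5.23 and 5.22, and Sncb, beta-synuclein, at 6.53, 6.46 and 6.54. Syn1 rose by 0.26 ± 0.08 in differentiation (limma, adjusted p = 0.0206), a call lost in 3 alternative settings (0.0117 to 0.0695), and none of the 3 passed between the siRNAs (Syn1 -0.21 with 0.0808, Syn3 -0.005 with 0.986, Sncb 0.08 with 0.602). Of 15 synaptic vesicle genes, 2 were called higher and 2 lower with PPAR gamma siRNA (19.9% and 16.1% of all genes). Rab3d fell by 1.01 ± 0.08 (2.49e-06) and Syt1 by 0.38 ± 0.09 (0.00939), while the membrane fusion genes Stx4a and Snap23 rose by 0.44 ± 0.09 (0.00227) and 0.46 ± 0.14 (0.0262). The Snap23 call was lost in 6 alternative settings (adjusted p up to 0.1). Averaged over their probe sets, Rab3d was at -0.61, and Syt1 at -0.07 without a call (adjusted p = 0.534). Of 12 neuron markers, 6 or 7 were below the array median on all arrays of a group. On all arrays of preadipocytes, control siRNA and PPAR gamma siRNA adipocytes, 4, 5 and 5 were above it. The mean of the 12 was 4.49 to 4.52, 4.49 to 4.63 and 4.54 to 4.73. Snap25, a defining neuronal gene, was at 3.00, 3.04 and 3.05, whereas Eno2 was at 7.65, 6.85 and 8.00. Eno2 was the 1 neuron marker called higher with PPAR gamma siRNA, by 1.157 ± 0.296 (0.0112), or by 0.72 without the third control siRNA array.

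Ndrg1 was the most variable of the 7 in the PPAR gamma siRNA group. It encodes a stress-responsive protein that hypoxia and glucocorticoids are known to induce. Its log2 levels were 7.51, 7.82 and 7.38 in preadipocytes, 10.95, 10.92 and 10.54 in control siRNA adipocytes and 11.61, 10.78 and 10.95 with PPAR gamma siRNA. The first PPAR gamma siRNA array stood above the rest, and the other arrays of the siRNA groups overlapped. The rise was 3.23 ± 0.20 (9.41-fold) and the siRNAs differed by 0.31 ± 0.20. The other 4 Ndrg1 probe sets gave differences of 0.22 to 0.35 between the siRNAs and rose by 2.36 to 3.61 in differentiation. Of its 5 probe sets, 2 rose at least 8-fold, and without x and s probe sets the rise was 2.96. The first array was above the mean of the other 2 by 0.75 at the chosen probe set and by 0.67 to 1.05 at the others. Without it the siRNA difference was 0.06 at the chosen probe set and -0.13 to 0.13 at the others.

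That array was high in other hypoxia genes as well. Of 26 measured hypoxia-response genes, 20 had their highest PPAR gamma siRNA value there (76.9%, against 37.0% of all genes), with a median of 0.42 above the mean of the other 2 arrays, against 0.00 for all genes. Ankrd37 (1.46), Ero1a (1.06) and the glucose transporter Slc2a1 (0.87) stood highest above that mean. The second PPAR gamma siRNA array held 1 of the 26 highest values and the third held 5. Among the control siRNA arrays, the second held 15 of the 26 (57.7%, against 26.8% of all genes) and the third held 2. Their median deviations were smaller, at 0.09 and -0.07, and those of Ndrg1 were 0.18 and -0.39. Only 33 of all genes (0.181%) deviated upward on the first PPAR gamma siRNA array by as much as Ndrg1. The part of this array's state in the Ndrg1 level was not tested beyond leaving the array out. The Actb 3' minus 5' difference of that array was 0.56.

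**Figure D5:**
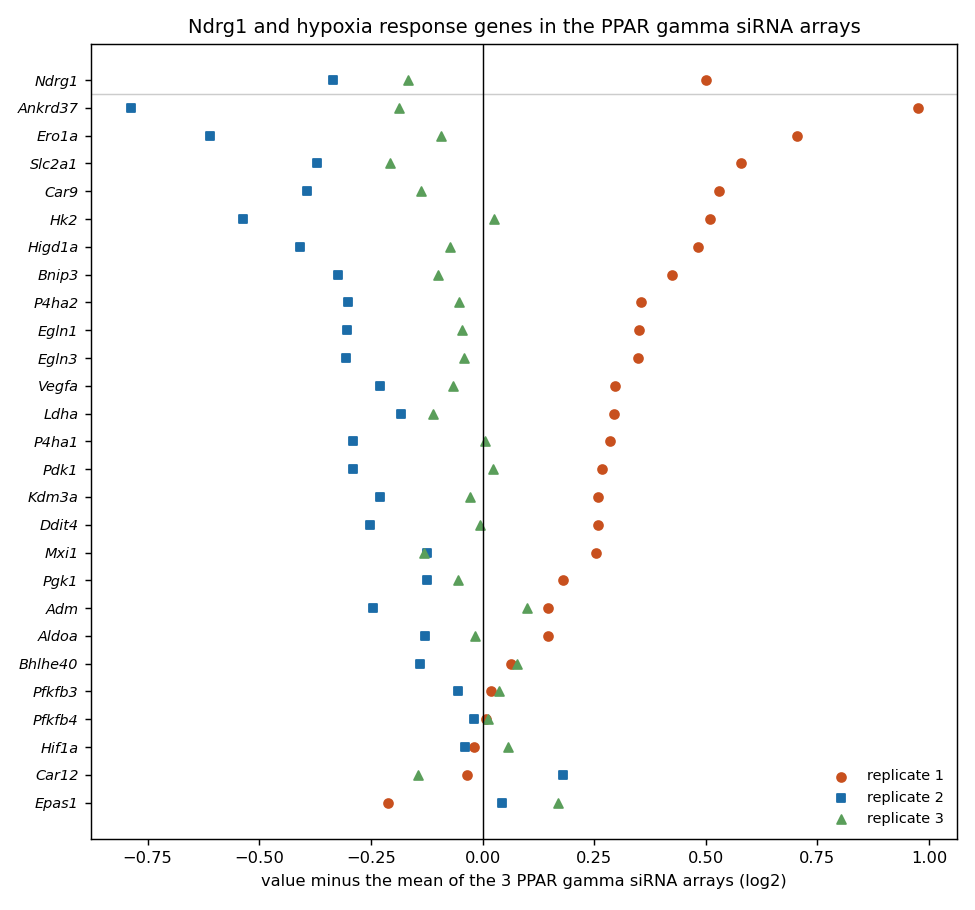
Log2 value on each PPAR gamma siRNA array minus the mean of the 3 PPAR gamma siRNA arrays, for Ndrg1 (top) and 26 hypoxia-response genes; circles, squares and triangles are replicates 1, 2 and 3. The circles of replicate 1 are the highest for Ndrg1 and for 20 of the 26 genes.

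Between the siRNAs the hypoxia genes moved both ways. In differentiation 24 of the 26 rose and 2 fell (27.1% and 24.7% of all genes), with a median of 1.91 log2. The largest falls with PPAR gamma siRNA were those of the glycolytic regulator Pfkfb3, by 3.27 ± 0.12 (limma, adjusted p = 5.34e-09), the oxygen sensor Egln3, by 1.24 ± 0.17 (0.000172), and the mitophagy gene Bnip3, by 1.14 ± 0.15 (0.000126). The largest rises were those of adrenomedullin, Adm, by 1.87 ± 0.12 (2.29e-07), Ddit4 by 0.64 ± 0.13 (0.0023) and Hif1a by 0.48 ± 0.08 (0.000844). In all, 4 rose and 12 fell (19.9% and 16.1% of all genes), with a median of -0.25. The count that fell was 14 without the first PPAR gamma siRNA array and 8 without the second, without the third or without the second control siRNA array.

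Glucocorticoid-response genes, the other group that Ndrg1 is known to share, gave more rises than falls. Of 18 measured, 9 rose and 5 fell in differentiation (27.1% and 24.7% of all genes), with a median of 0.41. With PPAR gamma siRNA 10 rose and 4 fell (19.9% and 16.1% of all genes), with a median of 0.61. Without the third control siRNA array 6 rose. The largest rises were Fam107a by 2.36 ± 0.14 (limma, adjusted p = 1.44e-07), the adipogenic factor Cebpd by 2.27 ± 0.14 (2.93e-07; 1.06 averaged over its probe sets) and the kinase Sgk1 by 2.07 ± 0.10 (4.98e-08). Pdk4 fell by 2.53 ± 0.14 (8.52e-08), Hsd11b1 by 0.77 ± 0.13 (0.000556) and Dusp1 by 0.48 ± 0.09 (0.00194). Of the 3 named rises, only Fam107a had also risen in differentiation, by 1.39. Cebpd had fallen there by 1.80, and Sgk1 lay between -2.62 and -2.49 over the settings run.

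The NDRG family moved in either direction. Ndrg2 rose by 0.56 ± 0.13 in differentiation (limma, adjusted p = 0.00512), Ndrg3 did not pass (0.12, 0.299) and Ndrg4 fell by 2.81 ± 0.10 (5.13e-10). Between the siRNAs, Ndrg4 rose by 0.47 ± 0.10 (0.00248), or by 0.76 without x and s probe sets, and Ndrg3 (0.25, 0.0532) and Ndrg2 (-0.23, 0.272) did not pass. The neighbours of Ndrg1 on chromosome 15 fell in differentiation, where Ndrg1 was higher: Ccn4 fell by 3.51 and then rose by 1.13 ± 0.08 with PPAR gamma siRNA (7.45e-07), and St3gal1 fell by 2.62 and then rose by 2.56 ± 0.10 (9.52e-09). Averaged over its probe sets, St3gal1 was at -1.66 and 1.48.

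Adipocyte and fibroblast markers moved between the siRNA groups. The mean of 10 adipocyte markers was 5.67 to 5.84 log2 in preadipocytes, 12.11 to 12.15 in control siRNA adipocytes and 9.65 to 9.77 with PPAR gamma siRNA. With PPAR gamma siRNA 9 of the 10 fell (16.1% of all genes), led by the lipid droplet protein Cidec (by 5.32 ± 0.10, limma, adjusted p = 1.2e-10), resistin, Retn (by 5.14 ± 0.11, 1.65e-10), and the lipase Pnpla2 (by 3.65 ± 0.11, 1.45e-09). Leptin was below the array median in all groups. The mean of 9 fibroblast markers was 11.78 to 11.91, 9.23 to 9.53 and 10.72 to 11.19, and 8 of the 9 rose with PPAR gamma siRNA (19.9% of all genes), led by Lox (2.95 ± 0.10, 2.76e-09), Pdgfra (2.56 ± 0.11, 1.57e-08) and Dlk1 (1.80 ± 0.20, 2.43e-05). The part of these shifts in the levels of the 7 genes was not tested.

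The 7 genes shared one profile by construction, and correlated with each other at 0.967 to 0.998 over the 9 arrays. The genes most like each of them over the same 9 arrays (Pearson r, 3 groups of 3 arrays, as a description) were Itih4 (0.9985) and Prtn3 for Parm1, Hfe (0.9993) and Ltc4s for Dapk1, Parm1 and Gstk1 (0.9976) for Prtn3, Rasl11b (0.9967) and Cp (0.9958) for Phkg1, Sncg (0.9964) and Hfe for Syn2, Ercc2 (0.9966) and Mxi1 (0.9961) for Ndrg1, and Fmo1 (0.9994) and Apoc1 (0.9979) for Sncg. Cp, ceruloplasmin, followed Phkg1 in direction and size between the siRNAs, with 2.39 in differentiation and 0.75 higher with PPAR gamma siRNA. Ercc2 changed by only 0.21 in differentiation, so that a high correlation carries no statement on size.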

How the data were processed

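Samples were grouped by their titles. The authors' deposited series table holds log2 probe set values (the range, 2.41 to 14.59, is the basis for calling them log2). Array medians were 4.82 to 4.89, and the values were taken as already normalised between arrays. The submitters' processing notes name MAS5, RMA and affy 1.16.0 without a role, and no other step is given in the sources used here. For arrays, their number (3 a group) limits the precision. Of 45101 probe sets, 64 controls were left out and 45037 tested. Symbols came from the platform annotation, which gave 18193 genes from 34945 single-gene probe sets, 9010 of them with several. One limma 3.58.1 model (R 4.3.3) with a mean per group was fitted to all 9 arrays, with moderated variances and Benjamini-Hochberg adjustment over the 45037 probe sets. Tests were two-sided, and "called", "rose" and "fell" mean an adjusted p under 0.05 except for the 7 genes, which were not tested. The script was tested on simulated data.

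The 7 genes and all gene lists were chosen with earlier results of these data known. Named besides the 7 were all measured members of lists of 7 or fewer genes and of the Syn2 and Pparg neighbourhood, up to 3 called rises and 3 falls of largest size between the siRNAs in longer lists, the nearest measured neighbours, the 2 genes of most like profile, and genes at the edges of the choice. Phkg2, Phka1, Ptprc, Snap25, Pygm, leptin and the genes highest on the first PPAR gamma siRNA array were named after their values were seen. All 7 genes also passed a filter on dim probe sets. As alternatives, the values were quantile-normalised again, centred on array medians or filtered that way; the fit used 2 groups only, trended robust variances or the replicate number as a block; probe sets of a gene were averaged, or x and s types left out; and each array was left out in turn.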

Additional observations from a re-analysis of the deposited data

How the results depend on the processing

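The directions of the differentiation change and of PPAR gamma siRNA adipocytes against preadipocytes held for the 7 genes under all alternatives run. The count of the 7 not below control siRNA was 6, ranged from 4 to 7 when 1 array was left out (4 without the third PPAR gamma siRNA array), was 4 when a gene's probe sets were averaged and 6 under the other settings. Averaged over its probe sets, Syn2 was -0.18 between the siRNAs in place of 0.43 and its rise 3.27 in place of 4.0, and the rise of Dapk1 was 3.27. Without x and s probe sets, Phkg1 was 3.49 in differentiation and 1.12 between the siRNAs. Genes called numbered 8217 to 9514 in differentiation, 5851 to 6349 between the siRNAs and 5374 to 6721 for PPAR gamma siRNA against preadipocytes when 1 array was left out, and 8158 to 9604, 5870 to 6611 and 6310 to 6726 under the other settings. No pairing of the arrays by replicate number was seen: the correlation of deviations was -0.18 to 0.13 over 9 same-number pairs, and over 0.1 in 3. So few pairs, taken from deviations within groups of 3, cannot exclude a pairing. With the replicate number as a block, 9199, 6314 and 6356 genes were called, and the count of 6 of the 7 stayed. Of 2450 comparisons of named genes other than the 7 with an alternative, 1 reversed, 61 lost and 20 gained a call. The reversal was Tnni2, at -0.14 in differentiation (adjusted p = 0.278) in place of 0.41 without x and s probe sets. Calls near the threshold lost in several settings included Eno2 in differentiation (9), Tnni2 between the siRNAs (8), Snap23 between the siRNAs (6), Hrh1 in differentiation (6) and Dapk3 and Zbed5 in differentiation (5 each); the cause was not tested. Between the siRNAs, calls gained in an alternative included Ctsc (lowest limma adjusted p 0.00703), Ndrg3 (0.0204), Ndrg2 (0.0324) and Elane (0.0376). Dapk2 (0.0406), Zbed5 (0.041), Stk17b (0.0423) and Syn1 (0.0465) were others. With 3 arrays a group, the siRNA differences of Parm1, Dapk1 and Prtn3 were smaller than their SE.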
